A study of Mus musculus with 7 samples.

Results

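The genes described here are 9 genes that mark organised lymphoid tissue and antibody-secreting cells: the chemokine genes Cxcl13, Ccl19 and Ccl21a, the chemokine receptor genes Cxcr5 and Ccr7, the lymphotoxin gene Ltb, and the plasma cell genes Prdm1, Mzb1 and Jchain. They were taken by symbol, and each was found once among the 21878 genes of the count table and of the FPKM table. The RNA came from abdominal aorta. The mice were C57BL/6 males of 8 weeks and received angiotensin II (Ang II), a pressor peptide used to induce aortic aneurysm, for up to 28 days. DKO 1 to DKO 4 are the 4 libraries labelled ApoE-/-Nur77-/-, and ApoE 1 to ApoE 3 are the 3 labelled ApoE-/-, so loss of ApoE, the apolipoprotein that clears plasma cholesterol remnants, was given for both groups and loss of the nuclear receptor Nur77 (gene Nr4a1) for the first. The labels do not give the deleted part of either gene or say that each library came from its own mouse, so p-values measure the spread between these libraries. All mice received Ang II, so no level without Ang II can be given.

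Chemokines that are made constantly in lymph nodes place lymphocytes: CXCL13 draws B cells through its receptor CXCR5, and CCL19 and CCL21 draw T cells and dendritic cells through CCR7. Lymphotoxin beta, with lymphotoxin alpha, signals to stromal cells through the lymphotoxin beta receptor and non-canonical NF-kB and keeps these chemokines expressed. In diseased arteries the same genes are known from tertiary lymphoid organs in the adventitia, where B cells can become plasma cells. That step is driven by the repressor Blimp-1 (gene Prdm1), and plasma cells secrete antibody with the help of the endoplasmic reticulum protein MZB1 and, for IgA and IgM polymers, the joining chain (gene Jchain).

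Libraries held 19295287 to 21727192 counts, and 3 counts, the limit that a count of 0 allows, come to 0.133 to 0.164 CPM (the usual per-library scaling of counts, here on library sizes adjusted by TMM), which covers counting error only. The genes named in the labels did not separate the groups as labelled. Nr4a1 was at 46.2, 57.0, 90.1 and 92.7 CPM in DKO 1 to DKO 4, against 193, 56.5 and 111 CPM in ApoE 1 to ApoE 3 (edgeR adjusted p = 0.360). Apoe was read at 18.3 to 34.7 CPM in the libraries labelled DKO and at 184 to 250 CPM in those labelled ApoE (log2 fold change -2.95 with SE 0.23; adjusted p = 0.0227, edgeR). Its log2 fold change stayed between -3.07 and -2.77 with each library left out in turn, but edgeR called it in 2 of these 7 fits, those without DKO 1 and without DKO 2 (adjusted p from 0.0151 to 0.225 over the 7), and not with the replicate number as a block (adjusted p = 0.0978). Directions below are therefore those of the libraries labelled DKO relative to the libraries labelled ApoE. Smooth muscle genes, the markers of the labelled tissue, were read in every library (summed CPM of 5 genes 7328 to 27080 in DKO and 14210 to 22200 in ApoE, of which Tagln averaged 3870 and 5070 CPM). Markers of other tissues were read too. White adipocyte genes did not overlap as a sum (5 genes, 1975 to 3021 CPM in DKO and 4109 to 6309 CPM in ApoE), 0 of 5 had a positive fold change, and the lipid droplet gene Cidec averaged 232 CPM in DKO and 459 CPM in ApoE. Fibroblast genes did not overlap as a sum either (5 genes, 2803 to 3959 CPM in DKO and 4400 to 4912 CPM in ApoE), but they went both ways: Pi16 averaged 332 CPM in DKO and 911 CPM in ApoE, while Pdgfra (148 and 125 CPM) and Lum (920.1 and 783 CPM) had positive fold changes. Endothelial genes overlapped as a sum (5 genes, 1063 to 1427 CPM in DKO and 1202 to 1396 CPM in ApoE), with mean CPM of 333 in DKO and 405 in ApoE for Vwf, and of 329 in DKO and 263 in ApoE for Cdh5. Atrial muscle genes summed to 4.57 to 16.0 CPM in DKO and to 7.29, 220 and 842 CPM in ApoE 1, ApoE 2 and ApoE 3, so that ApoE 1 lay inside the range of DKO, and the myosin light chain gene Myl4 averaged 6.11 CPM in DKO and 78.8 CPM in ApoE. None of these tissue markers was called, and their part in the results below was not tested.

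None of the 9 genes differed between the groups by edgeR's quasi-likelihood test at an adjusted p under 0.05. The same was true upward of all 14609 genes tested (0% called higher), and 0.0274% were called lower. All 9 genes passed the low-count filter and all 9 had positive log2 fold changes, with a median of 0.57, against 47.4% of all genes tested and a median of -0.02 over them. Ccl21a and Prdm1 had an unadjusted p under 0.05, a share of the 9 to be read beside the 8.00% of all genes that were higher at that level. Ccl21a was also the single gene of the 9 whose CPM did not overlap between the groups, as was the case for 7.08% of all genes tested. The direction was not stable for all of them: without ApoE 3, which had the lowest CPM for 7 of the 9 genes, 5 of 9 fold changes were positive and their median was 0.13. Without DKO 3, which had the highest CPM for 6 of the 9, 6 were positive and the median was 0.31, and without ApoE 2 all 9 were positive and the median was 1.44.

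**Figure D1:**
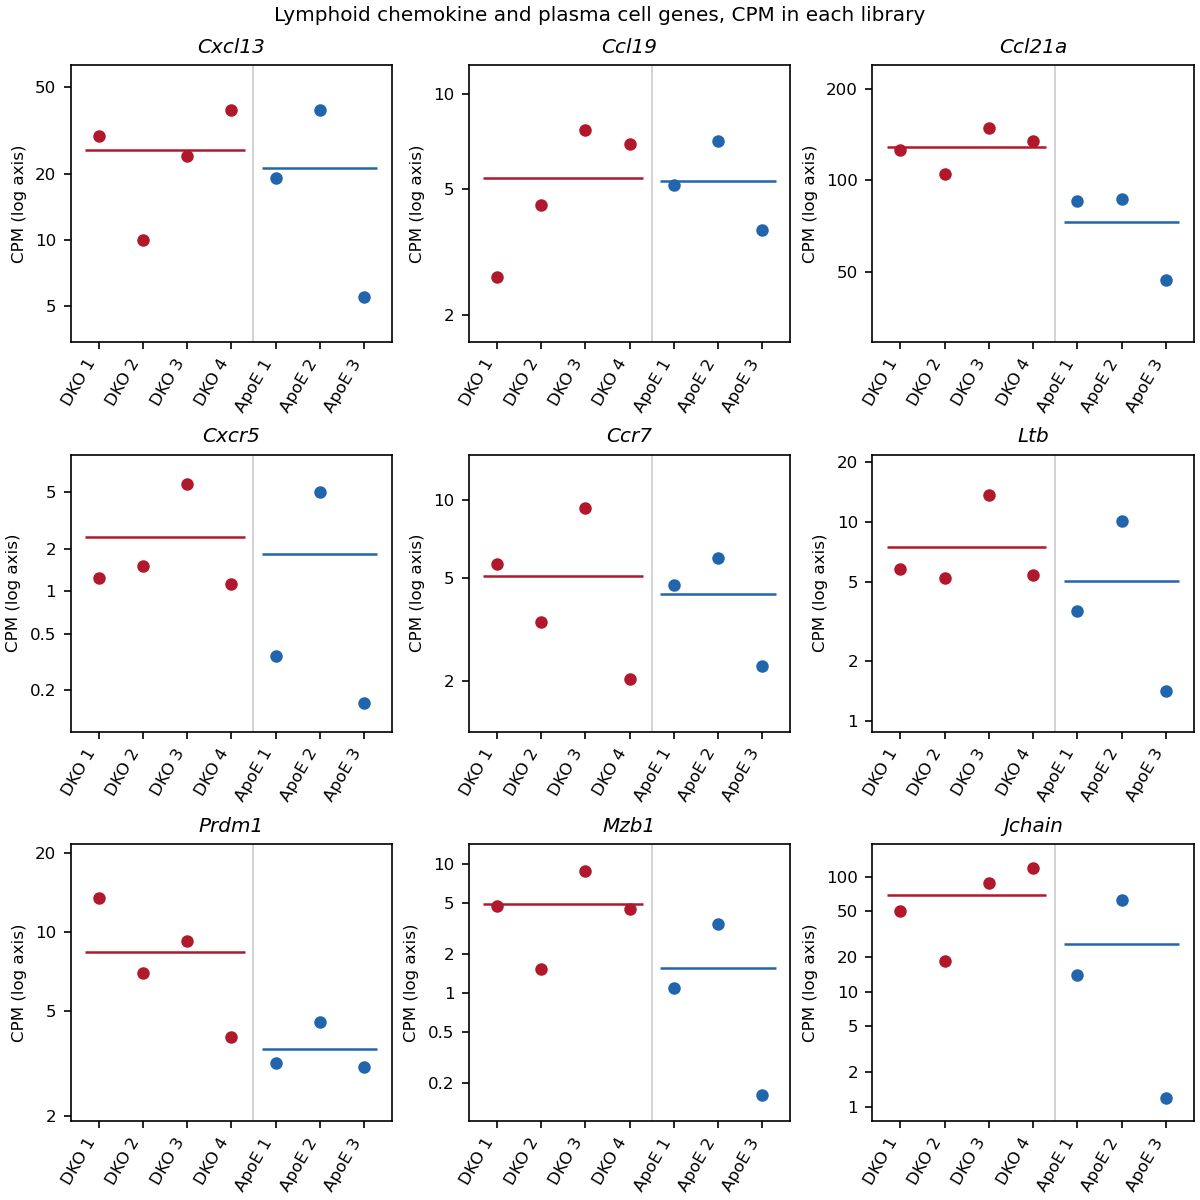
CPM (vertical log axes, a different range in each panel) of the 9 genes in DKO 1 to DKO 4 (red) and ApoE 1 to ApoE 3 (blue), with a line at the group mean. Ccl21a separates the groups, and in 7 of the 9 panels ApoE 3 is the lowest point.

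Per unit of length, Ccl21a was the most abundant of the 9 genes, with a median of 85.3 FPKM over the 7 libraries and the highest FPKM of the 9 in each library. Jchain followed with a median of 22.7 FPKM and Cxcl13 with 21.3, then Ccl19 with 6.02, Ltb with 4.37, Ccr7 with 2.21 and Mzb1 with 1.89 FPKM. Prdm1 and Cxcr5 were lowest, at medians of 0.46 and 0.43 FPKM. The ranges over the libraries overlapped between all neighbours in this order. In counts, Cxcr5 (3 to 130) and Mzb1 (3 to 200) were the sparsest, with 3 counts each in ApoE 3. For this check alone, CPM was taken on the total counts of each library, without the TMM adjustment. The counts and the FPKM values kept nearly 1 ratio across the libraries for Ccr7, Ccl21a and Cxcl13 (the largest ratio of such CPM to FPKM was 1.06, 1.07 and 1.08 times the smallest), and less so for Cxcr5 (1.42 times).

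Ccl21a (chromosome 4, 42772860 to 42773991, GRCm38.p6) encodes CCL21, which lymphatic endothelium and lymph node stroma make. It was at 126, 105, 149 and 135 CPM in DKO 1 to DKO 4, against 85.6, 86.7 and 47.2 CPM in ApoE 1 to ApoE 3. The lowest library labelled DKO thus lay above the highest labelled ApoE, and within the second group ApoE 3 lay well below the others. The means were 129 ± 18.4 CPM (SD, n = 4) in DKO and 73.2 ± 22.5 CPM (SD, n = 3) in ApoE, 1.76 times higher in DKO, with a log2 fold change of 0.82 (SE 0.23, edgeR adjusted p = 0.159). DESeq2's Wald test (adjusted p = 0.0128) and limma voom with library weights (adjusted p = 0.0382) called it higher, tests by which 3.32% and 6.17% of all genes were called higher. Without ApoE 3 the log2 fold change was 0.58. Near-identical copies of the gene make its counts uncertain, since the assignment of shared reads is not stated. Gm10591, which RefSeq lists as a Ccl21 copy, had 7, 11, 13 and 11 counts in DKO 1 to DKO 4, against 5, 3 and 4 counts in ApoE 1 to ApoE 3, and Ccl21b had 1 count, in DKO 3. LOC100861618, looked up with them, had 1, 0, 1 and 3 counts in DKO 1 to DKO 4, against 3, 2 and 0 counts in ApoE 1 to ApoE 3. Gm13304 had 0 counts in every library.

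Ccl21a was one of 7 lymphatic endothelial genes examined. The other 6 summed to 318, 270, 279 and 224 CPM in DKO 1 to DKO 4, against 245, 252 and 145 CPM in ApoE 1 to ApoE 3, and 5 of the 6 had positive fold changes with a median log2 fold change of 0.47. With Ccl21a included the median was 0.54, and it was 0.24 without ApoE 3. Of the 7, only Ccl21a and Flt4, which encodes the receptor for the lymphatic growth factor VEGF-C, did not overlap between groups. Flt4 averaged 65.4 ± 9.34 CPM (SD, n = 4) in DKO and 43.2 ± 9.64 CPM (SD, n = 3) in ApoE. Over all genes tested, 7.08% were higher without overlap. The hyaluronan receptor gene Lyve1, which macrophages also express, averaged 46.9 CPM in DKO and 53.3 CPM in ApoE. In whole tissue, fewer cells of a kind and less RNA in each cell cannot be told apart. Whether the lymphatic content of the samples had a part in the Ccl21a values was not tested.

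Ccl19 (chromosome 4, 42754525 to 42756365) encodes the other CCR7 ligand and lies in the same chemokine cluster as Ccl21a. It was at 2.63, 4.45, 7.68 and 6.95 CPM in DKO 1 to DKO 4, against 5.16, 7.08 and 3.71 CPM in ApoE 1 to ApoE 3. The groups overlapped throughout, and the lowest and the highest library were both labelled DKO. The means were 5.43 ± 2.32 CPM (SD, n = 4) in DKO and 5.32 ± 1.69 CPM (SD, n = 3) in ApoE (log2 fold change 0.03 with SE 0.41; adjusted p = 0.973, edgeR). The FPKM of Ccl21a was 33.3, 16.5, 11.4 and 11.1 times that of Ccl19 in DKO 1 to DKO 4, against 11.5, 7.55 and 8.996 times in ApoE 1 to ApoE 3. DKO 1 stood apart in this ratio, since it had the lowest Ccl19 level of all the libraries with a Ccl21a level inside the range of its group.

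Cxcl13 (chromosome 5, 95956939 to 95961068) encodes the chemokine that organises B cell follicles. It was at 29.7, 10.03, 24.1 and 39.3 CPM in DKO 1 to DKO 4, against 19.1, 39.1 and 5.46 CPM in ApoE 1 to ApoE 3. DKO 4 and ApoE 2 had nearly the same level, and the lowest library of each group was far below them. The means were 25.8 ± 12.2 CPM (SD, n = 4) in DKO and 21.2 ± 16.9 CPM (SD, n = 3) in ApoE (log2 fold change 0.28 with SE 0.65; adjusted p = 0.853, edgeR). The fold change was -0.18 without ApoE 3 and 1.07 without ApoE 2.

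The sequences before the start sites of the 3 chemokine genes and of Ltb are shown because the first 3 are the signals of lymphoid tissue that this pathway controls and Ltb is the gene that feeds it. RefSeq promoter entries on GRCm38.p6 matched 6 of the 9 genes. Each line gives the 250 bases before the start site, 5′ to 3′ on the strand of the gene, with capitals where a searched motif matched. Ccl19 (chr4:42756366-42756615) and Ccl21a (chr4:42773992-42774241) are read from the minus strand, and Cxcl13 (chr5:95956689-95956938) and Ltb (chr17:35194257-35194506) from the plus strand.
Ccl21a: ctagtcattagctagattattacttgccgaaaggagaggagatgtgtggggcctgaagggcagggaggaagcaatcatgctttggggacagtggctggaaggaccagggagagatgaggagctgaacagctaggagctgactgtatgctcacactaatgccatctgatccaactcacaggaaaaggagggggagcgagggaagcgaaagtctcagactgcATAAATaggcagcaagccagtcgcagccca
Ccl19: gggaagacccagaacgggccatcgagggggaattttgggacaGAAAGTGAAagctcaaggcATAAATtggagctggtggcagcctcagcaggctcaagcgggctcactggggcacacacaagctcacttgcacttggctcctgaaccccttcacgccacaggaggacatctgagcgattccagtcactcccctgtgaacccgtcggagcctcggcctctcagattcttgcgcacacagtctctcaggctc
Cxcl13: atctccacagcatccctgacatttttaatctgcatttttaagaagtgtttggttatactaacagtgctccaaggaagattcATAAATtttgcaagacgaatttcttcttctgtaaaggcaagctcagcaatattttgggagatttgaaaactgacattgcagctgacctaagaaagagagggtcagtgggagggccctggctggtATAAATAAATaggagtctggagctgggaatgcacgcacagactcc
Ltb: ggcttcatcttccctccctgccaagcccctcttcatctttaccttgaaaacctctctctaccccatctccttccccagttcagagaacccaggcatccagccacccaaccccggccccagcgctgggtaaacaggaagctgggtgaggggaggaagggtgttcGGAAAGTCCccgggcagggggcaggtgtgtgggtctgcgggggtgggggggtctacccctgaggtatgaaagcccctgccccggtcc

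The motifs searched were a kappaB-like GGNNTTTCC and an interferon regulatory factor-like GAAANNGAA, both on either strand, and a TATA-like ATAAAT on the strand of the gene. They occurred in 4.93%, 7.13% and 7.05% of all 32851 RefSeq windows of the same length. Ltb held the kappaB-like motif on the opposite strand, printed as GGAAAGTCC, from position -87 to -79 relative to the start site. Ccl19 held the interferon regulatory factor-like motif as GAAAGTGAA (-208 to -200). The TATA-like motif stood at -30 to -25 in Ccl21a, at -189 to -184 in Ccl19 and at -169 to -164, -45 to -40 and -41 to -36 in Cxcl13, the last pair overlapping. The windows of the chemokine genes held no match to GGNNTTTCC. Other forms of kappaB site, among them those of non-canonical NF-kB, were not searched, so their absence cannot be read from this. Prdm1 and Jchain, which also had promoter entries, held no match to any motif searched. The matches given are of letters in a short window and are not measured sites.

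Cxcr5 (chromosome 9, 44511787 to 44526444) encodes the CXCL13 receptor of B cells and follicular helper T cells. It was at 1.25, 1.5, 5.77 and 1.13 CPM in DKO 1 to DKO 4, against 0.347, 5.01 and 0.164 CPM in ApoE 1 to ApoE 3, which are 26, 32, 130 and 22 counts against 7, 109 and 3 counts. DKO 3 and ApoE 2, 1 library of each group, stood high, and ApoE 1 and ApoE 3 lay below every library labelled DKO. On the log2 scale DKO over ApoE came to 0.38 (SE 1.14, with adjusted p = 0.887 by edgeR), and it was -0.52 without DKO 3, -0.15 without ApoE 3, -0.10 without ApoE 1 and 3.20 without ApoE 2. DKO 3 was 35.3 times higher than ApoE 3, and the 3 counts of ApoE 3 leave a wide counting interval (exact binomial 95% interval 11.8 to 173).

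Ccr7 (chromosome 11, 99144199 to 99155077) encodes the receptor of naive T cells and mature dendritic cells for CCL19 and CCL21. It was at 5.65, 3.38, 9.32 and 2.05 CPM in DKO 1 to DKO 4, against 4.71, 5.98 and 2.29 CPM in ApoE 1 to ApoE 3. The highest and the lowest library were both labelled DKO, so the whole range of the libraries labelled ApoE lay inside that of the other group. On the log2 scale DKO over ApoE came to 0.24 (SE 0.55, with adjusted p = 0.852 by edgeR), and it was -0.23 without DKO 3 and -0.07 without ApoE 3.

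Ltb (chromosome 17, 35194507 to 35196305) encodes the membrane-bound subunit of lymphotoxin. It was at 5.79, 5.20, 13.6 and 5.42 CPM in DKO 1 to DKO 4, against 3.57, 10.2 and 1.42 CPM in ApoE 1 to ApoE 3. As for Cxcr5, DKO 3 and ApoE 2 were the high libraries and ApoE 1 and ApoE 3 lay below every library labelled DKO. The means were 7.50 ± 4.06 CPM (SD, n = 4) in DKO and 5.05 ± 4.55 CPM (SD, n = 3) in ApoE (log2 fold change 0.57 with SE 0.66; adjusted p = 0.664, edgeR). The fold change was 0.11 without DKO 3, 0.13 without ApoE 3, 0.37 without ApoE 1 and 1.58 without ApoE 2.

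Among the 20 genes of the lymphotoxin and non-canonical NF-kB pathway, Ltb included, none was called in either direction. Positive fold changes were found for 18 of the 20, with a median log2 fold change of 0.25, and 4 did not overlap between groups, all higher in DKO. Over all genes tested, 47.4% had positive fold changes and 7.08% were higher without overlap. Traf3, an adaptor that restrains the pathway, had the smallest p (57.0 ± 3.07 CPM, SD, n = 4, in DKO and 45.9 ± 1.36 CPM, SD, n = 3, in ApoE, log2 fold change 0.31 with SE 0.08, adjusted p = 0.150 by edgeR). Lta, the partner of Ltb, was at 0.479, 0.609, 1.07 and 0.511 CPM in DKO 1 to DKO 4, against 0.397, 0.230 and 0.164 CPM in ApoE 1 to ApoE 3, without overlap and close to the detection limit. Ltbr, the receptor, averaged 105 ± 4.18 CPM (SD, n = 4) in DKO and 103 ± 10.5 CPM (SD, n = 3) in ApoE. The non-canonical NF-kB subunit gene Nfkb2 averaged 61.9 ± 2.23 and 54.7 ± 1.997 CPM in DKO and ApoE, without overlap, and its partner Relb 31.3 ± 3.57 and 32.6 ± 2.04 CPM, with overlap (SD, n = 4 and n = 3).

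Of the other chemokine and receptor genes of this kind, Ackr4, a scavenging receptor that removes CCL19 and CCL21, had the smallest p. It was at 6.70, 4.83, 4.09 and 8.49 CPM in DKO 1 to DKO 4, against 14.7, 10.9 and 14.3 CPM in ApoE 1 to ApoE 3. Every library labelled DKO lay below every one labelled ApoE (log2 fold change -1.14, SE 0.27), yet the difference did not pass over all genes (edgeR adjusted p = 0.146). Cxcl12, the stromal chemokine that also guides plasma cells, averaged 933 ± 393 CPM (SD, n = 4) in DKO and 517 ± 144 CPM (SD, n = 3) in ApoE, with overlap. Its receptor Cxcr4 averaged 48.7 ± 22.8 and 29.9 ± 12.8 CPM in DKO and ApoE, also with overlap. Ackr3 went the other way, at 62.7 ± 9.06 and 83.7 ± 15.4 CPM in DKO and ApoE, with overlap (log2 fold change -0.42, SE 0.16). The list of 9 tested genes, 5 of which are the chemokine and receptor genes described above, held 7 positive fold changes with a median of 0.28, which was -0.18 without DKO 3 and -0.15 without ApoE 3, and no gene of it was called. Of the 4 tested genes outside those 5, 2 had positive fold changes (median 0.14).

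Prdm1 (chromosome 10, 44437174 to 44528558) encodes Blimp-1, which T cells and macrophages express as well as plasma cells. It was at 13.6, 6.99, 9.24 and 3.99 CPM in DKO 1 to DKO 4, against 3.17, 4.55 and 3.06 CPM in ApoE 1 to ApoE 3. DKO 1 to DKO 3 lay above all libraries labelled ApoE, and DKO 4 lay inside their range. The means were 8.44 ± 4.03 CPM (SD, n = 4) in DKO and 3.59 ± 0.83 CPM (SD, n = 3) in ApoE, 1.23 on the log2 scale (SE 0.41, edgeR adjusted p = 0.183). DESeq2 (adjusted p = 0.0467) and limma voom (adjusted p = 0.0402) called it higher. With each library left out in turn the log2 fold change stayed between 0.93 and 1.46 and was not called.

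Mzb1 (chromosome 18, 35647265 to 35650266) encodes a chaperone of antibody assembly in B cells and plasma cells. It was at 4.69, 1.55, 8.88 and 4.45 CPM in DKO 1 to DKO 4, against 1.09, 3.45 and 0.164 CPM in ApoE 1 to ApoE 3. DKO 2 lay below ApoE 2, and the other libraries labelled DKO lay above all of those labelled ApoE. On the log2 scale DKO over ApoE came to 1.63 (SE 0.92, with adjusted p = 0.362 by edgeR), the largest of the 9, and it was 1.11 without ApoE 3, 1.17 without DKO 3 and 2.94 without ApoE 2. The level in DKO 3 was 54.3 times that in ApoE 3 (200 against 3 counts, exact binomial 95% interval 18.3 to 265).

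Jchain (chromosome 5, 88519809 to 88527897) had the widest range of the 9 genes. It was at 49.9, 18.5, 87.9 and 119 CPM in DKO 1 to DKO 4, against 14.0, 62.2 and 1.2 CPM in ApoE 1 to ApoE 3. DKO 4 was 99.5 times higher than ApoE 3 (exact binomial 95% interval 65.6 to 159), while ApoE 2 lay above DKO 1 and DKO 2. The means were 68.9 ± 44.0 CPM (SD, n = 4) in DKO and 25.8 ± 32.2 CPM (SD, n = 3) in ApoE. On the log2 scale DKO over ApoE came to 1.41 (SE 1.09, with adjusted p = 0.495 by edgeR), and it was 0.85 without ApoE 3 and 3.17 without ApoE 2.

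Plasma cell genes other than these 3 summed to 909, 831, 915 and 888 CPM in DKO 1 to DKO 4, against 817, 773 and 761 CPM in ApoE 1 to ApoE 3, without overlap. Of 11 tested, 10 had positive fold changes with a median log2 fold change of 0.11, and 0 were called. Creld2, a chaperone of the endoplasmic reticulum, did not overlap between groups (51.2 ± 14.1 CPM, SD, n = 4, in DKO and 35.5 ± 1.54 CPM, SD, n = 3, in ApoE). Xbp1, the transcription factor of secretory cells, averaged 184 ± 9.62 and 171 ± 6.55 CPM in DKO and ApoE, and Irf4, which acts upstream of Blimp-1, 25.9 ± 9.03 and 24.4 ± 3.92 CPM (SD, n = 4 and n = 3), both with overlap. Xbp1, Txndc5, Sdc1 and Sec11c are made by many secretory or epithelial cells, and they hold most of the summed level of the list. Derl3, an endoplasmic reticulum gene of plasma cells, was at 1.39, 0.891, 2.62 and 4.45 CPM in DKO 1 to DKO 4, against 0.595, 1.93 and 0.436 CPM in ApoE 1 to ApoE 3. Tnfrsf17, the plasma cell survival receptor, was under 1 CPM in every library and was not tested, with its highest level, 0.972 CPM, in DKO 4. None of the 11 immunoglobulin constant region genes looked up by symbol was found in the count table, so their levels cannot be given.

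**Figure D2:**
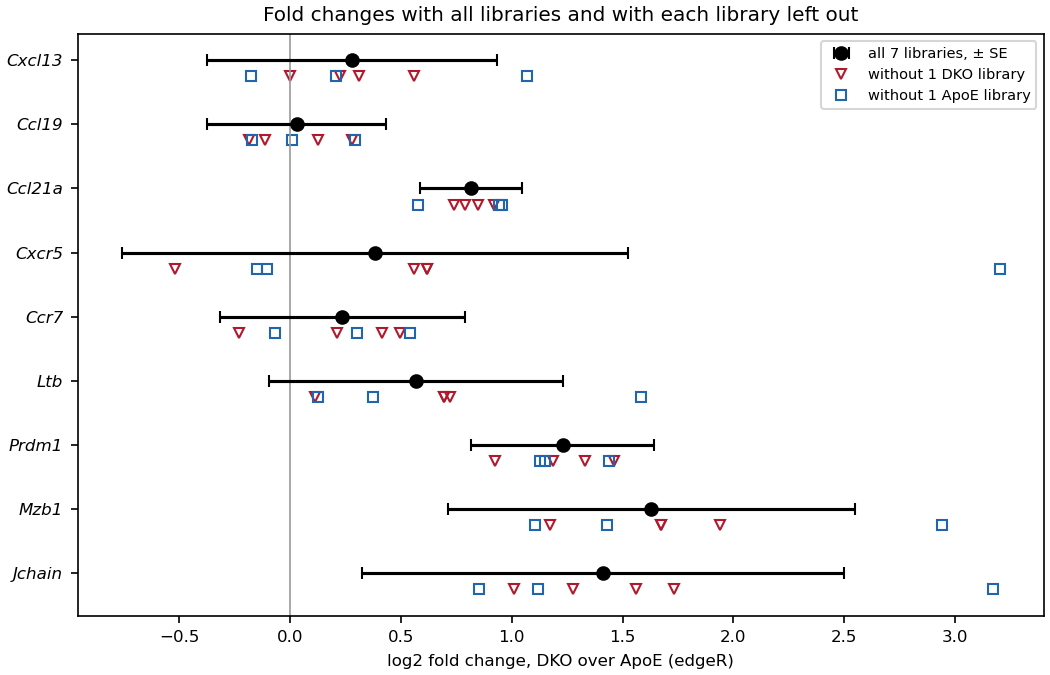
Log2 fold change of DKO over ApoE (horizontal axis, edgeR) for the 9 genes: black points with ± SE for all 7 libraries, and open marks below them for fits without 1 DKO library (triangles) or 1 ApoE library (squares). Ccl21a, Prdm1, Ltb, Mzb1 and Jchain stay above 0 in each fit, and the marks furthest right for Cxcr5 (3.20), Jchain (3.17) and Mzb1 (2.94) are fits without ApoE 2.

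The 9 genes did not follow one pattern over the libraries. For the 7 of them whose log2 CPM spanned at least 2, the 3 nearest genes were found by the root mean square distance between centred log2 CPM profiles over the 7 libraries, among 13025 other genes. Cxcr5 was nearest to the B cell genes Spib (distance 0.33) and Cd79a (0.44) and to Ly6d (0.45). Mzb1 was nearest to Pou2af1, a coactivator of B cells and plasma cells (0.36), then to Ly6d (0.66) and Jchain (0.69). Jchain was nearest to Mzb1 (0.69), Pou2af1 (0.74) and Cd79a (1.06). Ltb was nearest to H2-Ob, an MHC class II chaperone subunit of B cells (0.24), Acap1 (0.27) and Ptprcap (0.29). Ccr7 was nearest to LOC105247125 (0.21), Mcoln3 (0.23) and P2ry10 (0.24).

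Prdm1 and Cxcl13 had other neighbours. Prdm1 was nearest to Lcp2, an adaptor of T cells and myeloid cells (0.17), to Pira2, a receptor gene of myeloid and B cells (0.19), and to Spic, a transcription factor gene of red pulp and bone marrow macrophages (0.19). Lcp2, for example, was at 45.9, 28.4, 39.2 and 15.1 CPM in DKO 1 to DKO 4, against 16.1, 20.6 and 11.8 CPM in ApoE 1 to ApoE 3, so that like Prdm1 it was highest in DKO 1. Cxcl13 was nearest to the acute-phase genes Saa2 (0.30) and Saa1 (0.38) and to Ly6c2, a marker of inflammatory monocytes (0.44). Saa2 was at 5.98, 2.02, 5.55 and 6.60 CPM in DKO 1 to DKO 4, against 3.27, 10.9 and 1.64 CPM in ApoE 1 to ApoE 3.

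**Figure D3:**
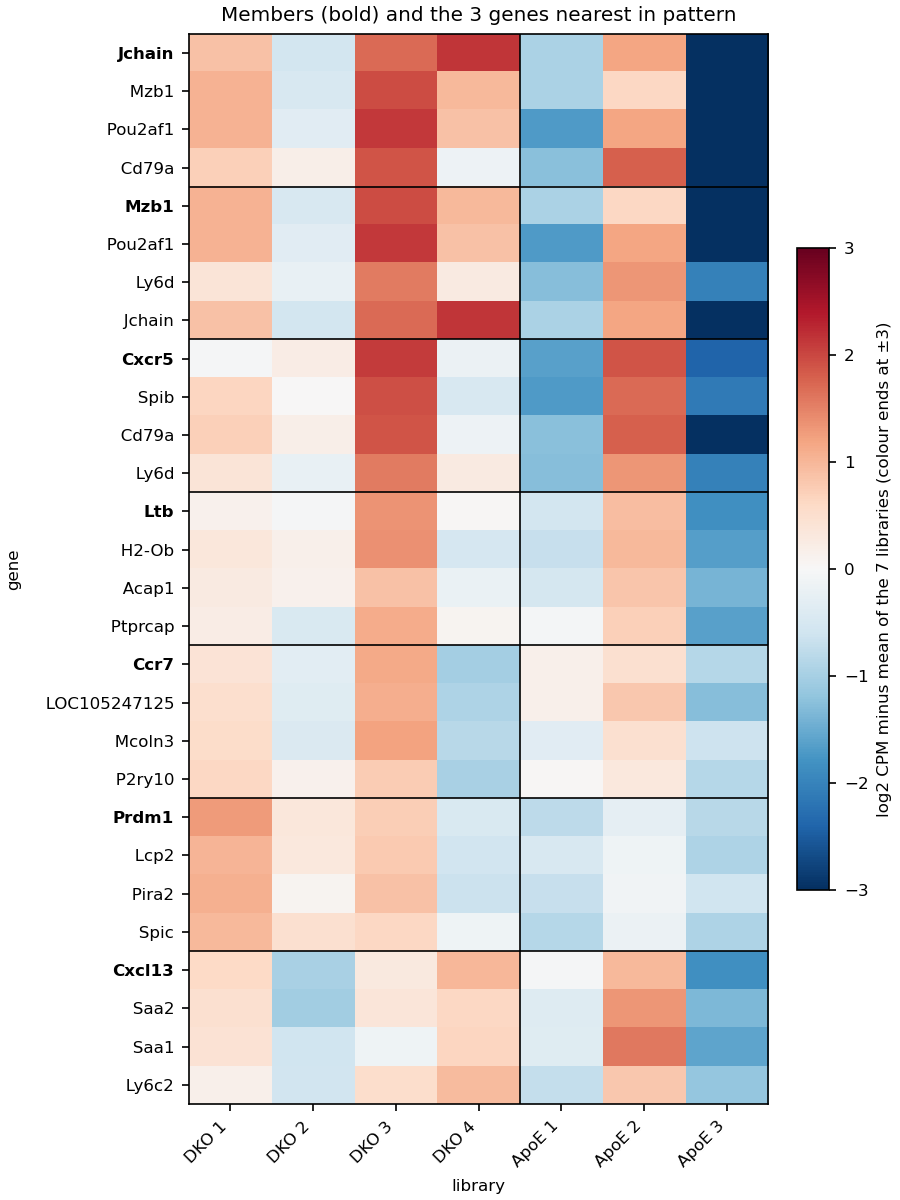
Log2 CPM minus its mean over the 7 libraries (colour, ending at ±3) for 7 of the genes (bold) and the 3 genes nearest to each, in DKO 1 to DKO 4 and ApoE 1 to ApoE 3. Cxcr5 and its neighbours are high in DKO 3 and ApoE 2, Jchain is highest in DKO 4, and Prdm1 and its neighbours are highest in DKO 1.

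B cell genes moved with Cxcr5 across the libraries. The 14 B cell genes summed to 94.3, 57.3, 187 and 42.2 CPM in DKO 1 to DKO 4, against 24.1, 150.3 and 14.0 CPM in ApoE 1 to ApoE 3, and Cxcr5 stood at 1.17% to 3.33% of that sum in every library. Of the 13 tested, 13 had positive fold changes (median log2 fold change 0.56), 0 were called and 0 were without overlap. The median was -0.14 without DKO 3, 0.02 without ApoE 3, 0.20 without ApoE 1 and 2.71 without ApoE 2. Fcrla, an Fc receptor-like gene of B cells, had the smallest p (2.91 ± 1.88 CPM, SD, n = 4, in DKO and 1.40 ± 1.17 CPM, SD, n = 3, in ApoE, log2 fold change 1.05 with SE 0.72, adjusted p = 0.442 by edgeR). The same B cell genes, Cxcr5 and Ltb were thus low in ApoE 1 and ApoE 3 and high in ApoE 2, and the part of B cell content in the levels of Cxcr5 and Ltb was not tested.

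Jchain and the B cell genes parted in DKO 4. There the Jchain level was 2.83 times the summed B cell CPM, against 0.32 to 0.53 times in DKO 1 to DKO 3, and 0.58, 0.41 and 0.0856 times in ApoE 1 to ApoE 3. Jchain counts were 26.9 times those of Mzb1 in DKO 4 and 9.90 to 12.0 times in DKO 1 to DKO 3, against 12.8, 18.0 and 7.33 times in ApoE 1 to ApoE 3, the last on 3 Mzb1 counts. The other plasma cell genes named above went both ways in DKO 4. Derl3, Tnfrsf17 (at only 0.972 CPM), Sec11c, Txndc5 and Creld2 were highest there of all the libraries. Irf4 was lowest there of all the libraries (13.8 CPM), and Prdm1, Sdc1 and Xbp1 were lowest there among the libraries labelled DKO.

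The 17 T cell genes summed to 131, 80.0, 179 and 64.0 CPM in DKO 1 to DKO 4, against 69.0, 93.5 and 39.3 CPM in ApoE 1 to ApoE 3. All 17 fold changes were positive (median log2 fold change 0.88, 0.44 without DKO 3) and 0 were called. Cd5, a receptor that dampens T cell receptor signals, had the smallest p and did not overlap (3.41 ± 0.77 CPM, SD, n = 4, in DKO and 1.84 ± 0.70 CPM, SD, n = 3, in ApoE, edgeR adjusted p = 0.229). The mature dendritic cell list, which also holds general dendritic cell genes such as Flt3, summed to 139 to 325 CPM in DKO and 129 to 184 CPM in ApoE. Of its fold changes, 9 of 10 were positive (median 0.25). The list includes Ccr7, and 8 of the 9 others were positive. Fscn1 and Itgax had the highest means of the list and held much of its sum, so the sum does not measure mature dendritic cells alone. Ccl22 averaged 2.81 CPM in DKO and 2.74 CPM in ApoE, and Flt3 averaged 6.20 and 6.68 CPM. The actin bundler gene Fscn1 had the smallest p among them (103 ± 45.9 CPM, SD, n = 4, in DKO and 55.3 ± 12.0 CPM, SD, n = 3, in ApoE, edgeR adjusted p = 0.267). Macrophages are another possible source of Prdm1 reads, and their part in the Prdm1 levels was not tested. All 8 macrophage genes examined had positive fold changes, beside 47.4% of all genes tested. The median log2 fold change of these 8 genes was 0.40, and it was 0.25 without DKO 3 and 0.25 without ApoE 3. Their smallest p was that of the chemokine receptor gene Cx3cr1 (47.1 ± 14.6 CPM, SD, n = 4, in DKO and 22.3 ± 4.75 CPM, SD, n = 3, in ApoE, edgeR adjusted p = 0.158).

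Among the 4 high endothelial venule genes tested, the widest range of CPM was that of Glycam1. Glycam1, a mucin that carries the L-selectin ligand of lymph node venules, was at 6.51, 2.63, 30.7 and 1.79 CPM in DKO 1 to DKO 4, against 0.496, 22.1 and 0.818 CPM in ApoE 1 to ApoE 3. It was thus high in DKO 3 and ApoE 2, the libraries with the highest Cxcr5, Ltb and B cell levels. The other 3 tested genes of the list did not have this order: Chst2 was highest in DKO 1 (17.9 CPM), Fut7 in DKO 4 (0.972 CPM), and Gcnt1 was at 17.0 CPM in ApoE 2 and 21.7 to 26.0 CPM in DKO. The untested genes of the list, Chst4 and Madcam1, were highest in DKO 3 and ApoE 2, as Glycam1 was, but close to the detection limit. Chst4 reached 1.24 CPM (DKO 3) and 1.06 CPM (ApoE 2), and its other values ran from 0 to 0.327 CPM. Madcam1, an addressin of mucosal venules, reached 0.444 CPM (DKO 3) and 0.368 CPM (ApoE 2). ApoE 1 had a Madcam1 level of 0.0496 CPM, and the level was 0 in 4 libraries. Gcnt1, a glycosyltransferase that builds selectin ligands in many cells, had the smallest p of the high endothelial venule genes and did not overlap (24.6 ± 1.99 CPM, SD, n = 4, in DKO and 16.1 ± 1.59 CPM, SD, n = 3, in ApoE, log2 fold change 0.61 with SE 0.11, adjusted p = 0.121 by edgeR). All 4 tested genes of that list had positive fold changes (median 0.47, which was 0.02 without ApoE 3 and 0.13 without ApoE 1) and 0 were called. The sources used here do not say whether lymph nodes beside the aorta were removed, and the part of such tissue in these levels was not tested.

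Follicle and germinal centre genes were mixed in direction. Of 8 tested genes of follicular dendritic and reticular stroma, 4 had positive fold changes (median log2 fold change 0.13, which was -0.20 without DKO 3 and -0.0099 without ApoE 3). Some of the positive genes also stand in the B cell, lymphatic endothelial or lymphotoxin lists above. Coch had the smallest p (0.507 ± 0.11 CPM, SD, n = 4, in DKO and 1.08 ± 0.02 CPM, SD, n = 3, in ApoE, edgeR adjusted p = 0.161). It was lower in DKO without overlap, and close to the detection limit. Of 5 tested genes of follicular helper T cells and germinal centres, 4 were positive (median 0.32, which was -0.0027 without DKO 3). S1pr2, a sphingosine phosphate receptor that vessels express too, had the smallest p (34.2 ± 6.33 CPM, SD, n = 4, in DKO and 25.3 ± 2.26 CPM, SD, n = 3, in ApoE, edgeR adjusted p = 0.2098). Genes of immature lymphocytes (Rag1, Rag2, Dntt and 3 others) summed to under 1 CPM in every library, with Rag2 and Igll1 at 0 in all.

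**Figure D4:**
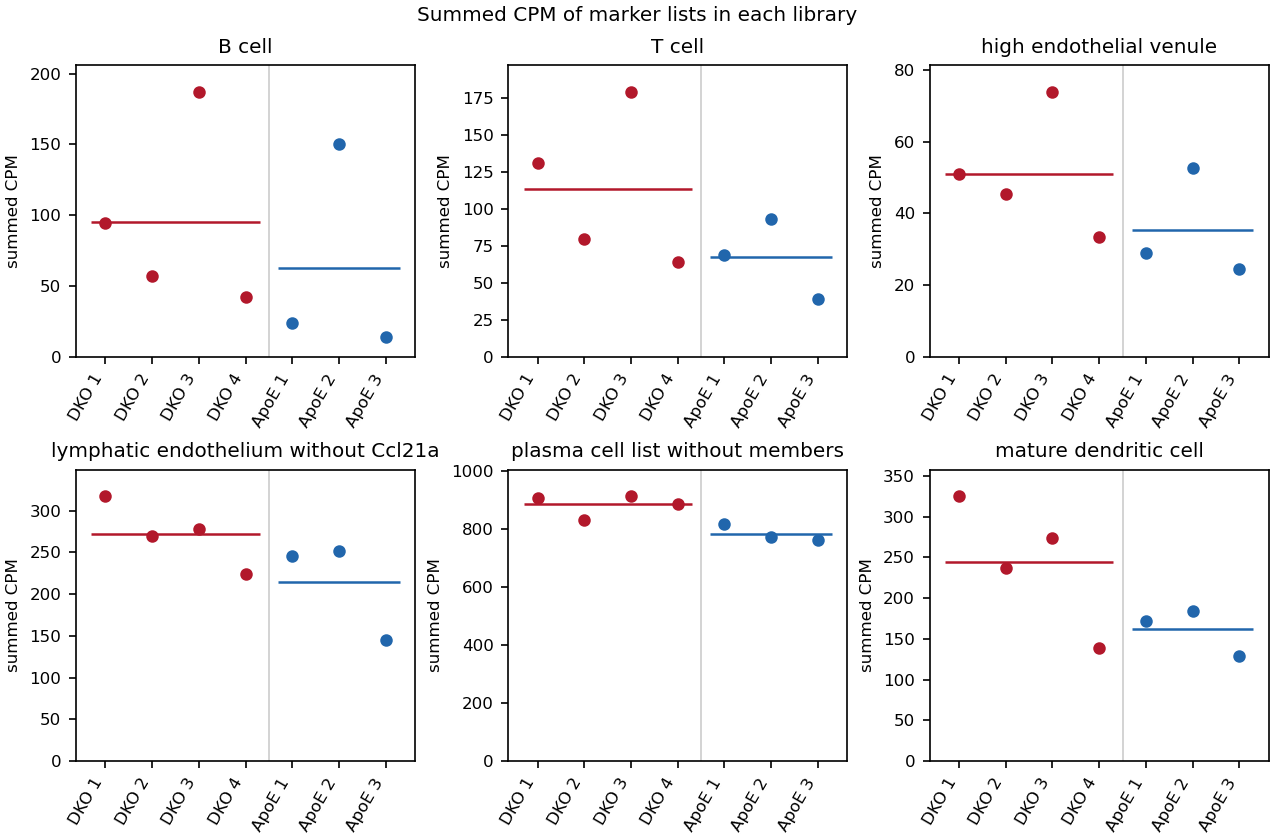
Summed CPM (vertical axes from 0) of 6 marker lists in DKO 1 to DKO 4 (red) and ApoE 1 to ApoE 3 (blue), with a line at the group mean. The B cell sum is highest in DKO 3 (187) and ApoE 2 (150.3), and the plasma cell list without Prdm1, Mzb1 and Jchain lies at 831 to 915 CPM in DKO and 761 to 817 CPM in ApoE, without overlap.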

How the data were processed

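Per the labels' protocols, total RNA was made into strand-marked mRNA libraries (TruSeq Stranded mRNA). Trimmomatic, HISAT2, HTSeq, Cufflinks, DESeq and GRCm38.p6 are named in the submitters' processing notes, with no versions or roles. Neither the annotation nor the strand setting of the counting is stated in the sources used here. The authors deposited a table of raw gene counts and a table of FPKM values, scaled by them for gene length and depth. Columns named KO were matched to the DKO titles by number, and 27 symbols that had turned into dates were restored.

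From the counts, genes were filtered (edgeR filterByExpr, minimum count 10), scaled by TMM and tested across all 14609 genes with edgeR 4.0.16's quasi-likelihood test (R 4.3.3), adjusted by Benjamini-Hochberg and called at 0.05. DESeq2 1.42.0 and limma 3.58.1 (voom, and log2(FPKM + 1)) were alternatives. The SE divides the size of a log2 fold change by the root of its F statistic. Profiles used log2 CPM with a prior count of 2. The fits were checked on simulated counts.

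The 9 genes and the 18 lists were chosen with earlier results of these data known. Named besides the 9 were Nr4a1, Apoe, of each list the gene with the smallest p (none was called), and, for genes spanning at least 2 in log2 CPM, the 3 nearest among those with a mean log2 CPM of at least 1. Cxcl12, Cxcr4, Ackr3, Lta, Ltbr, Nfkb2, Relb, Flt4, Lyve1, Creld2, Xbp1, Irf4, Txndc5, Sdc1, Sec11c, Derl3, Tnfrsf17, Glycam1, Madcam1, Chst4, Chst2, Fut7, Itgax, Ccl22, Flt3, Pdgfra, Lum, Cdh5, Ccl21b, Gm10591, Gm13304, LOC100861618, Rag1, Rag2, Dntt and Igll1 were chosen after their values were seen.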

Additional observations from a re-analysis of the deposited data

Results flagged for a closer look

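In DKO 3, Cxcr5 and Ltb lay far from the other libraries labelled DKO. The gap to the nearest of them took 0.919 of the range of the group for Cxcr5 and 0.930 for Ltb, above Dixon's critical value of 0.829 for 4 libraries. About 1 in 20 groups would pass this value by chance, and 9 genes were examined. The Cxcr5 level was 5.77 CPM in DKO 3 and 1.13 to 1.5 CPM in the other 3, and the Ltb level was 13.6 CPM and 5.20 to 5.79 CPM. DKO 3 also had the highest B cell sum (187 CPM) and the highest Glycam1 level (30.7 CPM), and the part of either was not tested.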

How the results depend on the processing

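The number of the 9 genes called was 0 in all fits except DESeq2 and limma voom, which each called 2 (Ccl21a and Prdm1). Over all genes, 0 were called higher and 4 lower. DESeq2 gave 454 higher and 679 lower, voom 902 and 1467, and log2(FPKM + 1) or log2(FPKM + 0.1) with a mean FPKM of at least 1 gave 1 higher. Unfiltered log2(FPKM + 1) and leaving out ApoE 2 and ApoE 3 together (chosen after seeing the data) gave 0 lower. Leaving out 1 library gave 0 to 4 higher and 0 to 2 lower. Same-numbered libraries deviated together for number 2 and not for numbers 1 and 3 (correlations 0.70, -0.39 and 0.0036), so the numbers were not taken to pair them. With the replicate block 0 were lower, and Ccl19 had a log2 fold change of -0.21. Leaving out 1 library gave log2 fold changes of -0.18 to 1.07 for Cxcl13, -0.18 to 0.29 for Ccl19, -0.52 to 3.20 for Cxcr5 and -0.23 to 0.54 for Ccr7. Ccl21a, Ltb, Prdm1, Mzb1 and Jchain were positive in every fit that held them. Cxcr5 and Prdm1 were absent where a minimum mean FPKM was set, and Cxcr5 also at a minimum count of 50. Cxcr5 and Mzb1 are limited by 3 counts in ApoE 3.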
